A study of Homo sapiens with 38 samples.

Results

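The comparison described here sets the HDAC inhibitor vorinostat against its solvent DMSO after 6 h in 5 human lymphoma lines. Its members are 10 RNA sequencing libraries of the 38 samples in the series, chosen by their labels: those of OCILY1, PFEIFFER, SUDHL4, TOLEDO and WSUDLCL2 labelled as vorinostat or DMSO at 6 h. All 5 are established lines of diffuse large B-cell lymphoma, as the series title has it, and nothing but the drug or its solvent is stated to differ between a line's libraries. Each line gave 1 library per treatment, so the line is the replicate and every difference was taken within a line (n = 5 lines). The series also holds pracinostat libraries of the same time and libraries of 14 days. The dose of vorinostat is not given in the sources used here. Separate cultures for a line's treated and untreated library are not stated, so the p-values measure the spread between these lines and libraries. Headers of the table of log2 values add a letter to DMSO, which is P for PFEIFFER and TOLEDO and V for OCILY1, SUDHL4 and WSUDLCL2 at 6 h, although the titles say DMSO alone. Named genes whose call changes when the V columns' 3 lines are used alone carry that value below.

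Vorinostat is a hydroxamic acid that binds the zinc ion in the active site of the classical histone deacetylases (HDACs). These enzymes remove acetyl groups from lysines of histones and of many other proteins, and blocking them lets acetylation build up within hours. In B-cell lymphomas the acetylation balance is of interest because the acetyltransferase genes CREBBP and EP300 are often mutated there. Hours after such drugs, genes rise and fall in similar numbers in many cell types, with the cell cycle inhibitor gene CDKN1A as the usual reference.

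Library totals ran from 3286221 to 7537402 counts in DMSO and from 5193001 to 8359776 counts with vorinostat. The lowest was SUDHL4 with DMSO, where 3 counts, the number that a count of 0 allows, come to 0.913 CPM, the count scaled to library size. Of the B-cell markers, MS4A1 (CD20) stood at 1239, 3105, 2653, 428 and 3363 CPM in DMSO and 537, 1326, 1198, 367 and 1451 CPM with vorinostat, so every line carried it in both libraries. CD79B, a subunit of the antigen receptor, stood at 895, 1144, 625, 918 and 463 CPM and 336, 446, 168, 483 and 260.3 CPM. Of 10 myeloid markers 7 were not found among the genes counted, and the other 3 summed to at most 3.21 CPM in any of the 10 libraries. Of 5 NK-cell markers 3 were found, and they summed to at most 3.30 CPM. Of 5 epithelial markers 3 were found, and they summed to 0 to 272 CPM in DMSO and 0 to 247 CPM with vorinostat. T-cell markers summed to 3.72 to 1418 CPM in DMSO and 6.39 to 580 CPM with vorinostat, and of the 2 that could be tested LCK fell. With vorinostat LCK was at most 79.5 CPM in any line when scaled with the pracinostat libraries. Most of the highest sum with vorinostat therefore came from other T-cell markers. The part of these markers in the results was not tested. Mitochondrially encoded transcripts took 9.20% ± 2.25 of the counts in DMSO and 9.11% ± 2.44 with vorinostat (SD, n = 5), a difference below the spread between lines (exact two-sided sign-flip permutation test, p = 0.8125, the smallest possible p being 0.0625).

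Across 12143 genes tested, 4862 were called at an adjusted p under 0.05 (40.0% of the genes tested), with edgeR's quasi-likelihood test and the line as block. Of them 2539 rose (20.9%) and 2323 fell (19.1%). The median log2 fold change was 0.88 among the genes that rose and -0.80 among those that fell. A total of 339 genes passed a test against a 2-fold change (2.79%), 197 of them higher (1.62%) and 142 lower (1.17%). For 5275 genes all 5 lines moved the same way (43.4%), and for 992 the 5 vorinostat libraries and the 5 DMSO libraries did not overlap in level (8.17%). These shares are the background against which every count below has to be read. Some genes had under 10 counts in most DMSO libraries, with CDKN2B, HEY1, HDAC11, CASP10, DACT3, CEP170B and MAPRE3 among them. They passed the filter on low counts through the vorinostat libraries, so their rises add little weight to the count of a list. Their folds start from few counts, so the size of these folds is uncertain. Of 15 tested genes of the textbook HDAC inhibitor response 11 rose and 2 fell. In what follows, levels are CPM scaled by edgeR's TMM factors, and values of single libraries are listed in the order OCILY1, PFEIFFER, SUDHL4, TOLEDO, WSUDLCL2.

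Among the genes that rose the most with the same sign in all 5 lines was DACT3, an antagonist of Wnt signalling (ENSG00000197380.9, chromosome 19, 46647612 to 46661138, GRCh38). Its level in DMSO was 2.61, 9.90, 0.668, 1.08 and 1.28 CPM and with vorinostat 37.5, 24.4, 27.3, 27.2 and 27.2 CPM. All vorinostat libraries lay above all DMSO libraries, and their levels were close to each other although PFEIFFER started higher. SUDHL4 with DMSO was under its floor of 0.913 CPM. DACT3 passed the filter on low counts through the vorinostat libraries, where it is high, so the gap between the groups has little weight by itself. The log2 fold change was 3.52 (SE 0.52), adjusted p = 0.0012. BCORL1, which encodes a transcriptional corepressor of Polycomb complexes (ENSG00000085185.14, chromosome X, 129981107 to 130058083), had 4.81, 9.90, 5.34, 25.2 and 6.00 CPM in DMSO and 41.4, 58.7, 31.0, 155 and 51.1 CPM with vorinostat. The groups did not overlap, TOLEDO being highest in both, and the change of 2.78 (SE 0.16) was similar in the 5 lines, from 2.47 in SUDHL4 to 3.03 in WSUDLCL2. GLI1, the transcription factor at the end of the Hedgehog pathway, was measured at 3.98, 4.95, 6.35, 3.56 and 1.57 CPM in DMSO and 23.8, 21.2, 30.2, 44.1 and 22.1 CPM with the drug. Here too the groups were apart, and the log2 fold change was 2.83 (SE 0.28).

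Other large rises with the same sign in 5 of 5 lines included ZNF385A (3.48, SE 0.45), a zinc finger gene, CORO2A (3.41, SE 0.38), a coronin that binds actin, CEP170B (3.28, SE 0.59), a relative of the centrosome protein CEP170, and GABBR1 (2.93, SE 0.30), a subunit of the GABA-B receptor. THEMIS2, a B-cell signalling adaptor, rose by 3.26 (SE 0.35) on the same log2 scale. The adhesion molecule gene MCAM showed how unequal a large rise could be. In DMSO it stood at 7.97, 7.21, 1.00, 2.01 and 104 CPM and with vorinostat at 149, 113, 2.16, 59.0 and 339 CPM, so WSUDLCL2 held more in DMSO than SUDHL4 and TOLEDO with the drug. The difference in log2 CPM was 0.91 in SUDHL4 and 4.68 in TOLEDO, and the fitted change was 3.43 (SE 0.48).

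The deepest falls were in genes of very different functions. METAP1D, a mitochondrial enzyme that removes the first methionine of new proteins (ENSG00000172878.12, chromosome 2, 171999583 to 172082430), went from 28.0, 21.8, 13.0, 12.5 and 17.7 CPM to 2.61, 3.21, 2.62, 1.04 and 1.77 CPM. Every vorinostat library was below every DMSO library, and the log2 fold change was -3.04 (SE 0.26), adjusted p = 0.000108. DUS3L, which reduces uridine to dihydrouridine in RNA (ENSG00000141994.14, chromosome 19, 5784832 to 5791238), had 23.6, 20.1, 56.5, 28.9 and 22.6 CPM in DMSO, with SUDHL4 far above the rest. With vorinostat its levels were 3.47, 3.44, 4.47, 4.47 and 3.87 CPM, nearly the same in all 5 lines, and the change was -2.84 (SE 0.22). MEPCE, which caps the 7SK RNA (ENSG00000146834.12, chromosome 7, 100428790 to 100434126), changed nearly alike in every line. It stood at 108, 77.8, 135, 135 and 89.4 CPM in DMSO and at 22.9, 18.3, 29.4, 23.7 and 16.43 CPM with vorinostat, with no overlap and a log2 fold change of -2.29 (SE 0.12), adjusted p = 3.54e-05.

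Further falls with the same sign in 5 of 5 lines were those of PLD6 (-2.44, SE 0.25), a mitochondrial phospholipase, ARSB (-2.37, SE 0.35), a lysosomal sulfatase, DDX59 (-2.34, SE 0.20), an RNA helicase, COQ7 (-2.27, SE 0.24), an enzyme of coenzyme Q synthesis, and TFAP4 (-2.24, SE 0.20), a transcription factor. TNFRSF17, the plasma cell receptor BCMA, was very uneven between lines: 8.93, 313, 32.4, 13.8 and 53.8 CPM in DMSO and 2.26, 91.2, 3.85, 1.04 and 8.38 CPM with vorinostat. The groups overlapped through PFEIFFER, yet all 5 lines were lower with vorinostat (-2.49, SE 0.25). IGHG1, an immunoglobulin heavy chain constant gene, went from 221, 110.3, 225, 198 and 62.5 CPM to 76.4, 10.5, 38.7, 28.7 and 7.25 CPM, a change of -2.63 (SE 0.25), but reads of its near-identical neighbours IGHG2 to IGHG4 can be split between them, so its level is uncertain.

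**Figure D1:**
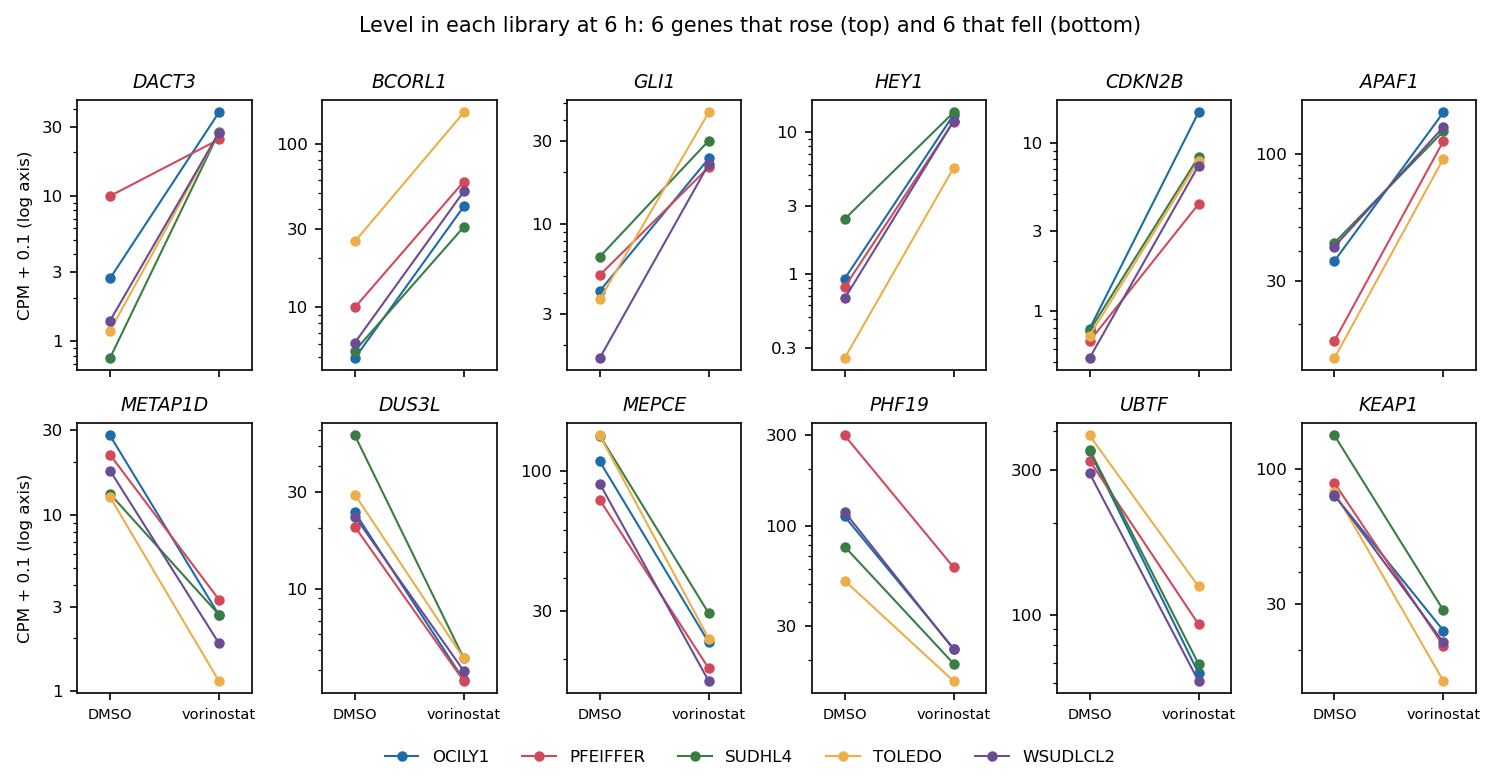
Level of 12 genes in each of the 10 libraries at 6 h, as CPM plus 0.1 on a log axis, with DMSO on the left and vorinostat on the right of each panel and a line joining the 2 libraries of a cell line. Genes in the top row rose and those in the bottom row fell in all 5 lines, with no overlap of the groups except for PHF19.

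The upstream sequences of 5 genes are shown because they belong to the strongest or best known changes in each direction. They are RefSeq promoter windows on GRCh38.p14, up to 250 bases before the gene's start in RefSeq, less any base that GENCODE 29 lists in an exon. Capitals mark the GC box, GGGCGG on either strand, overlapping matches included, which is the sequence that Sp1-type zinc finger factors are known to bind and which is known from work on HDAC inhibitors at CDKN1A. CDKN1A is at chr6:36678560-36678657 on the plus strand (98 bases, 57 to 154 bases before its RefSeq start), DACT3 at chr19:46661183-46661432 on the minus strand, BCORL1 at chrX:129980729-129980978 on the plus strand, PHF19 at chr9:120868912-120869161 on the minus strand and SUV39H1 at chrX:48695304-48695553 on the plus strand. The window of CDKN1A lies inside the span that GENCODE 29 gives the gene (36676460 to 36687339).
CDKN1A: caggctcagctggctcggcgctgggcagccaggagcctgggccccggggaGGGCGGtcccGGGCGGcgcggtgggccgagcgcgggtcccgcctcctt
DACT3: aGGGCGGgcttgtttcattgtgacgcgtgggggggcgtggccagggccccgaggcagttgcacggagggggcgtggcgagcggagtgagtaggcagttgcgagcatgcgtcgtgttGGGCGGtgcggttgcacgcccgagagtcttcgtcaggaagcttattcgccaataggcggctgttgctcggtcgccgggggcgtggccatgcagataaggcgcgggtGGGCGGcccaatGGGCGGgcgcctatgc
BCORL1: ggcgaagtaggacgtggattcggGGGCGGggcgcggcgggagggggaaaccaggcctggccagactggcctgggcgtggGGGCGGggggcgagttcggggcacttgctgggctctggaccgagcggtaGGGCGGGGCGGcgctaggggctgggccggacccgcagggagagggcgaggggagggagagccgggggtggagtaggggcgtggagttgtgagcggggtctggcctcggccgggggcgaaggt
PHF19: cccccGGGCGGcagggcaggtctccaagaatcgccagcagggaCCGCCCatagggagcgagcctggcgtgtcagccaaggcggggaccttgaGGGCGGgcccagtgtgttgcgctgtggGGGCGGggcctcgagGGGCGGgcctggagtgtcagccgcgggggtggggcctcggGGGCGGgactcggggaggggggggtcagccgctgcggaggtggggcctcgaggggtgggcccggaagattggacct
SUV39H1: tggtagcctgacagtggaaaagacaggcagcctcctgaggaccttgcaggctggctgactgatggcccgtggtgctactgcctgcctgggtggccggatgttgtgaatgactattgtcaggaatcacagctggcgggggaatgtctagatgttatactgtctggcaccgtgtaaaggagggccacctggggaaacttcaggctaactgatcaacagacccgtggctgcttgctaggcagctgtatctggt

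The 98 bases shown for CDKN1A held 2 GC boxes, and its full 250 bases, exon bases included, held 4. The 250-base windows of DACT3 and BCORL1 held 4 each and that of PHF19 6, whereas SUV39H1's held 0. DACT3, BCORL1 and CDKN1A rose, while PHF19 and SUV39H1 fell, so GC boxes stood before genes of both directions. Of all 27305 promoters in the RefSeq table, 42.31% hold a GC box in the 250 bases before the start. Among protein-coding genes tested, 8937 of 10705 (83.48%) could be matched to a promoter, and 68.57% of these held one. The share was 75.33% of the 1994 genes that rose, 65.10% of the 1825 that fell and 67.17% of the 5118 not called. Base composition moved the same way, with a median GC content of 66.8%, 64.0% and 64.8%, and its part in the difference was not tested. The CCAAT box (CCAAT, either strand) was found in 38.87%, 34.14% and 35.87% of the same sets and in 33.04% of all promoters of the table. The E box CACGTG, a palindrome bound by MYC and MAX, was found in 8.17%, 9.53% and 9.38%, and in 6.49% of all promoters. No test was made on these shares, and a match is only a stretch of letters.

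Enzymes that write histone marks fell more often than they rose. Of 12 acetyltransferase genes tested, 8 fell and 0 rose (median log2 fold change -0.68, against 0.02 for all genes). KAT5 (TIP60), the acetyltransferase of the NuA4 complex, had 20.2, 25.2, 24.7, 25.4 and 18.4 CPM in DMSO and 5.91, 5.04, 6.93, 8.79 and 5.80 CPM with vorinostat, with no overlap and a change of -1.82 (SE 0.19). KAT6B fell by 1.65 (SE 0.17), and KAT2A, the SAGA complex enzyme, fell by 1.04 (SE 0.12). CREBBP fell by 0.82 (SE 0.14) in 5 of 5 lines. EP300 fell by 0.54 (SE 0.15), with PFEIFFER at 0.04, and lost its call without OCILY1, SUDHL4 or WSUDLCL2 (adjusted p = 0.0528, 0.0601 and 0.0535). Among the 11 HDAC genes themselves HDAC3 rose and HDAC7 fell (0.78, SE 0.13 and -0.89, SE 0.15). HDAC11 was called higher, but it had 0.549, 4.38, 0, 0.155 and 0.571 CPM in DMSO and 4.00, 6.19, 2.31, 1.94 and 4.35 CPM with vorinostat, so 4 lines were under 1 CPM in DMSO and PFEIFFER, the other, differed by 0.47 in log2 CPM. The main enzymes of the corepressor complexes, HDAC1 (-0.19, SE 0.14) and HDAC2 (0.23, SE 0.13), did not pass the test, although HDAC1 was called lower without TOLEDO (-0.34, adjusted p = 0.034) and in the V columns' 3 lines (-0.30, adjusted p = 0.0453).

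Of 24 histone methyltransferase genes 12 fell and 2 rose. SUV39H1, which trimethylates lysine 9 of histone H3, went from 26.4, 26.3, 26.7, 63.4 and 24.1 CPM to 7.64, 8.14, 8.32, 16.5 and 8.86 CPM, again with no overlap (-1.71, SE 0.16). SETDB1, which acts on the same lysine, fell by 1.13 (SE 0.14), and KMT5B, a lysine 20 methyltransferase of histone H4, fell by 1.29 (SE 0.15), while KMT2A rose by 0.55 (SE 0.11). In the Polycomb list 6 of 27 genes rose (22.22%) and 5 fell (18.52%), near the 20.9% and 19.1% of all genes. The falls numbered 3 with scaling by library totals or without OCILY1, SUDHL4 or TOLEDO. Single members that guide the PRC2 complex went in opposite directions. PHF19, an accessory subunit of PRC2 that binds methylated lysine 36 of histone H3, had 112, 299, 78.2, 51.8 and 119 CPM in DMSO and 22.8, 60.8, 18.9, 15.3 and 22.6 CPM with the drug. PFEIFFER with vorinostat was above TOLEDO with DMSO, the only overlap, and the log2 fold change was -2.17 (SE 0.13). Its paralogue PHF1 rose by 1.21 (SE 0.14), and JARID2, another accessory subunit, rose by 1.93 (SE 0.21) from 5.91, 8.06, 7.01, 53.8 and 4.14 CPM to 23.3, 27.5, 37.4, 126 and 25.4 CPM. EZH2, the enzyme of the complex, stood at 0.21 (SE 0.12) and was not called.

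The SWI/SNF list showed a similar division among subunits that take the same place in the complex. Of 26 members 10 fell and 6 rose. SMARCD1 fell by 0.95 (SE 0.12) and its paralogue SMARCD3 rose by 1.46 (SE 0.32). DPF3, a subunit known from muscle and neurons, rose by 2.35 (SE 0.27), from 1.37, 2.83, 1.67, 0.773 and 3.28 CPM to 9.38, 13.1, 5.39, 5.96 and 15.1 CPM, and DPF1 by 2.08 (SE 0.40). BCL7A, a subunit often mutated in B-cell lymphoma, fell by 1.73 (SE 0.15), from 159, 126, 357, 255 and 290.1 CPM to 70.7, 32.9, 89.6, 64.2 and 97.0 CPM, all 5 lines being below the lowest DMSO library.

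Linker histone and histone variant genes with polyadenylated transcripts rose in 5 of 15 tested members, and CENPA, the centromeric variant, fell by 0.67 (SE 0.18). CENPA lost its call without OCILY1 or WSUDLCL2 (adjusted p = 0.0703 and 0.0548) and with all 6 h libraries in 1 fit (adjusted p = 0.0619). H1F0, the replacement linker histone H1.0, is a classic responder to HDAC inhibitors. Its level was 18.5, 229.9, 0.668, 0 and 4.00 CPM in DMSO and 413, 1046, 0, 0 and 117 CPM with vorinostat. OCILY1, PFEIFFER and WSUDLCL2 were higher with the drug, whereas SUDHL4 and TOLEDO were at or under 1 CPM in both libraries. The fitted change of 3.64 (SE 0.60) was called by edgeR (adjusted p = 0.0027) but not by DESeq2 (2.22, adjusted p = 0.236) or by limma on the deposited log2 values (1.49, adjusted p = 0.368). H1FX, the linker histone H1.10, rose in all 5 lines, from 25.0, 0.849, 0.668, 8.35 and 5.57 CPM to 124, 10.5, 6.01, 31.6 and 68.3 CPM, by 2.74 (SE 0.28).

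Among 25 tested genes of transcription elongation control 8 rose (32%) and 3 fell (12%), against 20.9% and 19.1% of all genes. The share called in either direction, 44%, was near the 40.0% of all genes tested, and the median log2 fold change was -0.03. The 7SK particle held changes in both directions. This particle is a noncoding RNA with proteins that keeps the elongation kinase P-TEFb inactive. HEXIM1, its inhibitory protein, rose by 1.39 (SE 0.26), from 11.1, 48.9, 17.7, 45.9 and 15.8 CPM to 27.8, 116, 28.0, 276 and 30.1 CPM, the groups overlapping because OCILY1, SUDHL4 and WSUDLCL2 start low. The stabilising proteins fell: MEPCE as given above, and LARP7 from 89.96, 69.2, 97.2, 78.5 and 82.8 CPM to 48.8, 34.6, 49.6, 40.1 and 46.4 CPM, with no overlap (-0.93, SE 0.11). AFF1 (1.48, SE 0.21) and ELL2 (1.45, SE 0.35), of the super elongation complex, rose and were higher in 5 of 5 lines.

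Genes for making and processing RNA were mostly lower. Of 29 ribosome biogenesis genes 21 fell and 0 rose, of 35 tRNA modification genes 22 fell and 1 rose, and of 29 genes for SR proteins and hnRNPs, which steer splicing, 19 fell and 1 rose. The medians were -0.56, -0.62 and -0.43, against 0.02 over all genes tested, of which 19.1% fell. UBTF, the factor that opens ribosomal DNA for RNA polymerase I, dropped from 344, 321, 349, 388 and 292 CPM to 64.6, 93.5, 69.3, 124 and 60.9 CPM. No library of one group reached the range of the other, and the change was -2.08 (SE 0.15). UTP20, of the small subunit processome, fell by 1.62 (SE 0.24), and PPAN, of large subunit assembly, fell by 1.31 (SE 0.27). By contrast 81 of 82 cytosolic ribosomal protein genes were not called, RPL7L1, a relative of RPL7, being the exception with -0.69 (SE 0.14). Those genes took 9.52% ± 1.09 of all counts in DMSO and 9.50% ± 1.44 with vorinostat (SD, n = 5; exact two-sided sign-flip permutation test, p = 1.0).

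Enzymes that modify transfer RNA included, besides DUS3L, METTL1, the 7-methylguanosine methyltransferase, which went from 15.7, 23.5, 20.4, 41.3 and 19.7 CPM to 4.34, 7.10, 6.01, 9.83 and 6.44 CPM with no overlap (-1.80, SE 0.18). ELP6, a subunit of the Elongator complex that acts on wobble uridines, fell by 1.53 (SE 0.15), from 59.5, 43.99, 47.4, 41.4 and 54.5 CPM to 21.2, 18.6, 17.2, 13.7 and 14.7 CPM, while ELP2 of the same complex rose by 0.39 (SE 0.13). ELP2 was not called without PFEIFFER, SUDHL4 or WSUDLCL2 (adjusted p = 0.0967, 0.125 and 0.12). In the splicing list SRSF6 changed the most, from 451, 296, 344, 359.6 and 372 CPM to 123, 121, 108, 176 and 71.3 CPM (-1.65, SE 0.19). PTBP1, the polypyrimidine tract binding protein that represses neuronal exons, fell from 557, 464, 596, 589 and 463 CPM to 252, 347, 252, 217 and 233 CPM (-1.05, SE 0.15). TRA2A, a splicing activator, was the 1 member that rose, by 0.38 (SE 0.12), and lost its call without PFEIFFER, SUDHL4 or TOLEDO (adjusted p = 0.0642, 0.0615 and 0.0652) and in the V columns' 3 lines (adjusted p = 0.13). Falls in this list numbered from 13 without OCILY1 to 20 without PFEIFFER. Families taken by the letters of their names gave 31 falls and 2 rises among 76 mitochondrial ribosomal protein genes and 14 falls and 2 rises among 33 DEAD-box helicase genes.

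MYC, a growth transcription factor known to drive ribosome and nucleotide synthesis genes, had 396, 299, 599, 264 and 359.5 CPM in DMSO and 463, 121, 204, 87.3 and 180.2 CPM with vorinostat. It was lower in 4 lines and slightly higher in OCILY1 (0.23), with a fitted change of -1.05 (SE 0.25) and adjusted p = 0.0113. In the V columns' 3 lines (OCILY1, SUDHL4 and WSUDLCL2) the call was lost (-0.77, adjusted p = 0.135). Of 11 tested members of the MYC and MAX network 5 rose and 3 fell. MXD1, which competes with MYC for MAX, rose in all lines, from 21.8, 6.65, 11.4, 8.04 and 11.3 CPM to 59.2, 23.3, 61.0, 57.5 and 40.9 CPM with no overlap (2.05, SE 0.21). MXI1, with the same role, rose by 1.29 (SE 0.34), but was not called in the V columns' 3 lines (1.27, adjusted p = 0.0728). MLX, the partner of the glucose-sensing MondoA factors, fell from 42.9, 97.0, 69.5, 89.5 and 63.7 CPM to 19.8, 38.4, 30.5, 42.4 and 30.4 CPM (-1.16, SE 0.12), and MGA, a MAX partner in a Polycomb complex, fell by 0.72 (SE 0.11). Of 26 nucleotide and folate synthesis genes 11 fell and 0 rose. CTPS1, the CTP synthase of lymphocytes, went from 180.3, 154, 121, 255 and 118 CPM to 48.1, 76.0, 35.7, 68.5 and 28.4 CPM (-1.72, SE 0.16), the smallest difference being that of PFEIFFER at -1.01. PFAS, of purine synthesis, fell by 1.37 (SE 0.20).

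**Figure D2:**
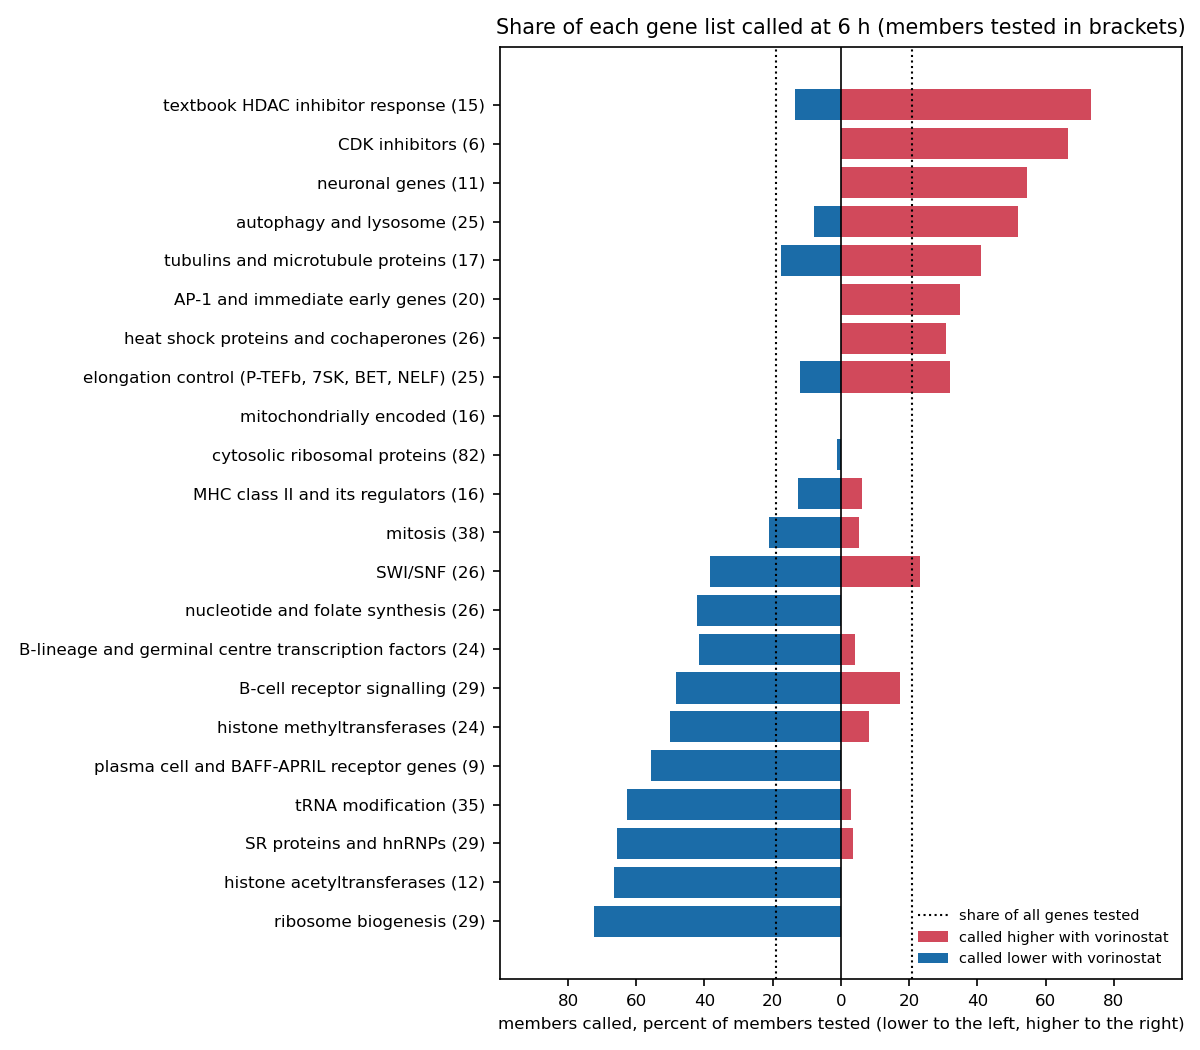
Share of the tested members of 22 gene lists that were called lower (left) or higher (right) with vorinostat at 6 h, in percent, with the number of members tested in brackets. Dotted lines mark the shares over all 12143 genes tested, 19.1% lower and 20.9% higher.

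Of 6 tested CDK inhibitor genes, the brakes of the cell cycle, 4 rose and 0 fell, with CDKN2B among the rises. CDKN1A (p21, ENSG00000124762.12, chromosome 6, 36676460 to 36687339) had 15.2, 9.34, 12.7, 10.2 and 8.28 CPM in DMSO and 121, 26.9, 14.0, 106 and 51.2 CPM with vorinostat. The groups overlapped because SUDHL4 hardly differed (log2 difference 0.14), while OCILY1 and TOLEDO passed 100 CPM, and the fitted change was 2.24 (SE 0.43), adjusted p = 0.0038. CDKN2B (p15) rose in every line without overlap, from 0.687, 0.566, 0.668, 0.618 and 0.428 CPM to 15.1, 4.24, 8.16, 7.74 and 7.25 CPM (3.75, SE 0.33). All its DMSO levels were under 1 CPM, so the size of the fold is uncertain. Of 38 mitosis genes 8 fell (21.05%) and 2 rose, a share of falls near the 19.1% of all genes. The falls numbered 14 without PFEIFFER, 13 in the V columns' 3 lines and 5 without OCILY1, TOLEDO or WSUDLCL2. Of the rises, that of PTTG1, securin, which restrains sister chromatid separation, went from 121, 146, 110.2, 114 and 140.1 CPM to 267, 337, 347, 259 and 320.5 CPM with no overlap (1.27, SE 0.12). Of 30 DNA replication genes 8 fell and 3 rose, with MCM7 and MCM2 of the replicative helicase lower (-1.02, SE 0.12 and -0.97, SE 0.14) and TK1, thymidine kinase, higher (1.06, SE 0.17).

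Pro-apoptotic genes rose more often than they fell. Of 27 tested members 10 rose (37.04%) and 2 fell (7.41%), against 20.9% and 19.1% of all genes. The share called in either direction, 44.44%, was near the 40.0% of all genes tested. APAF1, the scaffold of the apoptosome, went from 36.3, 17.0, 43.1, 14.4 and 41.5 CPM to 148, 113, 124, 95.8 and 129 CPM, with no overlap (2.12, SE 0.20). CASP10, an initiator caspase of death receptors, was under the level of 3 counts in 3 DMSO libraries, with 0.275, 0.141, 0.334, 2.32 and 0.714 CPM, and had 3.30, 5.84, 2.16, 4.47 and 4.03 CPM with vorinostat (2.55, SE 0.52). BID fell by 1.00 (SE 0.13), and BCL2L11 (BIM) stood at 0.42 (SE 0.15), just short of a call, and was called under 8 alternatives, with DESeq2 (adjusted p = 0.0328) and the V columns' 3 lines (0.48, adjusted p = 0.0115) among them. Of 9 anti-apoptotic genes 4 fell and 1 rose, and CFLAR (-1.26, SE 0.16), XIAP (-1.03, SE 0.13) and BCL2 (-0.999, SE 0.20) were among the falls. MCL1 rose by 0.45 (SE 0.14), and was not called without OCILY1, TOLEDO or WSUDLCL2 (adjusted p = 0.0782, 0.0751 and 0.0555) or in the V columns' 3 lines (adjusted p = 0.101).

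Several lists of B-cell genes held more falls than rises. Of 29 tested genes of B-cell receptor signalling 14 fell and 5 rose (median -0.52), of 24 transcription factors of the B lineage and germinal centre 10 fell and 1 rose, and of 9 plasma cell and BAFF or APRIL receptor genes 5 fell and 0 rose. IKZF3 (Aiolos), a zinc finger factor of the B lineage, had 509.7, 1421, 241, 289.6 and 395 CPM in DMSO and 114, 577, 55.5, 100.1 and 81.2 CPM with vorinostat. Every line was lower, with an overlap through PFEIFFER alone (-1.88, SE 0.16). POU2AF1, the B-cell coactivator OCA-B, fell by 0.88 (SE 0.12). CD72 (-1.98, SE 0.23), BANK1 (-1.58, SE 0.19) and BLK (-1.57, SE 0.14) had the deepest falls in the receptor pathway list. The antigen receptor subunit CD79B fell by 1.28 (SE 0.16), and MS4A1 (CD20), the target of rituximab, fell by 1.01 (SE 0.15) with TOLEDO at -0.22.

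Among the members of the same pathway that rose were kinases. FYN, a SRC-family kinase better known from T cells, went from 3.30, 17.0, 21.4, 14.7 and 4.85 CPM to 19.1, 49.0, 74.9, 53.2 and 22.2 CPM, higher in all 5 lines (1.94, SE 0.18). PRKCB, the protein kinase C isoform of B-cell receptor signalling, had 5.36, 5.80, 39.8, 178 and 6.42 CPM in DMSO and 31.6, 39.0, 92.1, 204 and 39.6 CPM with vorinostat. OCILY1, PFEIFFER and WSUDLCL2 started lowest and had the largest differences, and the fitted change was 1.75 (SE 0.38). LYN rose by 0.73 (SE 0.12). Of 16 MHC class II genes 1 rose and 2 fell: the peptide-loading gene HLA-DMA rose (0.82, SE 0.23), and its partner HLA-DMB (-0.93, SE 0.14) and the regulator RFX5 (-1.23, SE 0.13) fell. Without TOLEDO the rise of HLA-DMA was not called (adjusted p = 0.0599). CIITA, the master regulator, stood at 0.11 (SE 0.23) and was not called. It turned to -0.04 without TOLEDO, and without PFEIFFER it was called higher (0.40, adjusted p = 0.0353).

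Of 21 tested genes of B-cell activation and homing 5 rose and 4 fell, near the shares of all genes. CD69, an early activation marker, had 0.412, 0.141, 0.334, 43.1 and 0.143 CPM in DMSO and 1.91, 0.115, 3.39, 345 and 1.93 CPM with vorinostat, so that TOLEDO alone held a high level while OCILY1, SUDHL4 and WSUDLCL2 were higher than in DMSO at low levels and PFEIFFER was under the floor in both (2.89, SE 0.29). CCR7, the lymph node homing receptor, showed 0, 16.0, 0.334, 92.5 and 0.714 CPM and 1.91, 19.2, 3.08, 473 and 3.06 CPM, again highest in TOLEDO (1.68, SE 0.44), and was not called without it (adjusted p = 0.0846). The integrin genes ITGAL (-1.86, SE 0.29) and ITGA4 (-1.58, SE 0.31) fell and ITGB1 rose (1.20, SE 0.21). With limma on the deposited log2 values ITGA4 was not called (-1.14, adjusted p = 0.0906).

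Some stress genes were called. Of 26 heat shock and cochaperone genes 8 rose (30.77%) and 0 fell (median 0.02), against 20.9% and 19.1% of all genes. The share called in either direction was below the 40.0% of all genes tested. HSPA1B, an inducible HSP70 gene, had 34.6, 21.8, 9.35, 41.4 and 14.1 CPM in DMSO and 134, 56.3, 41.9, 45.6 and 67.5 CPM with vorinostat (1.55, SE 0.30), with TOLEDO nearly the same in both. It shares most of its sequence with HSPA1A (2.04, SE 0.37), so the split of reads between them is uncertain. Without PFEIFFER, and also in the V columns' 3 lines, 5 members of this list fell. Of 20 AP-1 and immediate early genes 7 rose (35%) and 0 fell, so the share called was again below the 40.0% of all genes. NR4A1 (1.80, SE 0.38) and EGR1 (1.69, SE 0.43) were among the rises. EGR1 lost its call without OCILY1 or WSUDLCL2 (adjusted p = 0.0629 and 0.104), and the list's rises numbered from 4 without OCILY1 or WSUDLCL2 to 11 without PFEIFFER. KEAP1, the adaptor that marks the antioxidant factor NRF2 for degradation, fell from 78.8, 88.1, 135, 81.6 and 79.2 CPM to 23.6, 20.6, 28.3, 15.0 and 21.3 CPM with no overlap (-2.08, SE 0.14). NQO1, a standard target of NRF2, fell by 0.83 (SE 0.27), a call that was lost with DESeq2 (adjusted p = 0.0606), with limma (adjusted p = 0.0732), without OCILY1, TOLEDO or WSUDLCL2 (adjusted p = 0.0872, 0.0975 and 0.118) and in the V columns' 3 lines (adjusted p = 0.0896).

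Autophagy and lysosome genes rose in 13 of 25 tested members and fell in 2 (median 0.54, against 0.02 over all genes). GABARAPL1, which coats the growing autophagosome, rose by 1.85 (SE 0.39). WIPI1, which binds the early autophagosome membrane, rose by 1.64 (SE 0.21). In the lysosome, NEU1, a sialidase, rose by 1.24 (SE 0.20) with no overlap. TFEB, a main transcription factor of lysosomal genes, fell from 37.1, 43.7, 92.9, 23.0 and 68.0 CPM to 21.0, 12.8, 29.0, 16.7 and 30.3 CPM (-1.19, SE 0.20). In OCILY1, SUDHL4 and WSUDLCL2 alone, GABARAPL1 stood at 1.65 and was not called (adjusted p = 0.0691). RAB GTPases, the switches of membrane traffic, rose in 24 of 52 tested genes and fell in 6 (median 0.40).

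Some genes known from neurons rose from low levels. Of 37 such genes 24 were found and 11 could be tested, and 6 of these rose and 0 fell. SYP, the synaptic vesicle protein synaptophysin, had 2.33, 10.0, 0.334, 2.47 and 0.571 CPM in DMSO and 15.3, 42.3, 0.308, 10.9 and 6.604 CPM with vorinostat, higher in 4 lines and under the floor in SUDHL4 (2.40, SE 0.31). KIF5C, the neuronal kinesin heavy chain, rose in all lines from 11.0, 13.6, 5.01, 8.04 and 3.57 CPM to 69.1, 60.0, 12.8, 43.0 and 15.1 CPM (2.20, SE 0.20). ENO2, neuron-specific enolase, rose by 1.48 (SE 0.30). Members of such a list that are low in DMSO pass the filter through the vorinostat libraries, so the count by itself has little weight. In the tubulin list 7 of 17 rose (41.18%) and 3 fell (17.65%), against 20.9% and 19.1% of all genes, with MAPRE3 kept by the filter through the vorinostat libraries. The isotypes TUBB2A and TUBB2B, which have near-identical coding sequences and so an uncertain split of reads, rose (2.95, SE 0.29 and 5.23, SE 0.48), while TUBB and TUBA1C, widely expressed isotypes, fell (-0.76, SE 0.15 and -0.66, SE 0.17). With vorinostat TUBB2B had 44.8, 26.8, 0.789, 2.77 and 50.7 CPM when scaled with the pracinostat libraries. It was near the floor in SUDHL4 even with the drug, so the size of its fold is uncertain. MAPRE3, a microtubule end-binding protein, went from 0.687, 2.40, 1.67, 0.618 and 1.86 CPM to 14.4, 9.97, 13.2, 7.89 and 16.1 CPM (3.12, SE 0.34), while its relative MAPRE1 fell by 0.59 (SE 0.13).

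Notch pathway genes rose in 4 of 14 tested members (28.57%), HEY1 included, and fell in 1 (7.14%), against 20.9% and 19.1% of all genes. The share called in either direction, 35.71%, was below the 40.0% of all genes tested. HEY1, a repressor that Notch induces, had 0.824, 0.707, 2.34, 0.155 and 0.571 CPM in DMSO, under 1 CPM in 4 lines, and 13.2, 11.8, 13.7, 5.51 and 11.9 CPM with vorinostat (3.83, SE 0.35, with no overlap). It passed the filter on low counts through the vorinostat libraries, where it is high. The ligand genes JAG1 (2.39, SE 0.31) and JAG2 (2.98, SE 0.45) and the receptor gene NOTCH2 (1.61, SE 0.24) rose. With vorinostat JAG2 had 22.2, 9.18, 3.15, 0.308 and 4.94 CPM when scaled with the pracinostat libraries. TOLEDO was thus under its floor of 0.436 CPM even with the drug. DTX1, a ubiquitin ligase that is a Notch target in B cells, instead fell from 314, 236, 559, 778 and 298 CPM to 117, 84.0, 149, 189 and 104 CPM, with no overlap (-1.68, SE 0.13). PPM1J, a protein phosphatase gene chosen after its values were seen, was the 1 gene with at most 3 counts in every DMSO library and over 3 in every vorinostat library, with 3 counts over the 5 DMSO libraries and 111 over those with the drug.

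The response was shared by the lines to a varying degree. Counted within each line from log2 CPM (prior count 2) over 9680 genes with a mean of at least 5 CPM, at least 2-fold differences numbered 1695 in OCILY1, 1432 in PFEIFFER, 1819 in SUDHL4, 1880 in TOLEDO and 1585 in WSUDLCL2. Across genes the differences of a pair of lines correlated with r from 0.56 (PFEIFFER with TOLEDO) to 0.79 (OCILY1 with WSUDLCL2), a description over genes that are not independent. Where the other 4 lines shared a sign, PFEIFFER had the opposite one in 15.81% of genes, TOLEDO in 12.50%, SUDHL4 in 11.78%, WSUDLCL2 in 6.65% and OCILY1 in 5.99%. With the 3 lines of the V columns only, 2138 genes rose and 2046 fell, and 1915 and 1773 of these had the same call over 5 lines.

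**Figure D3:**
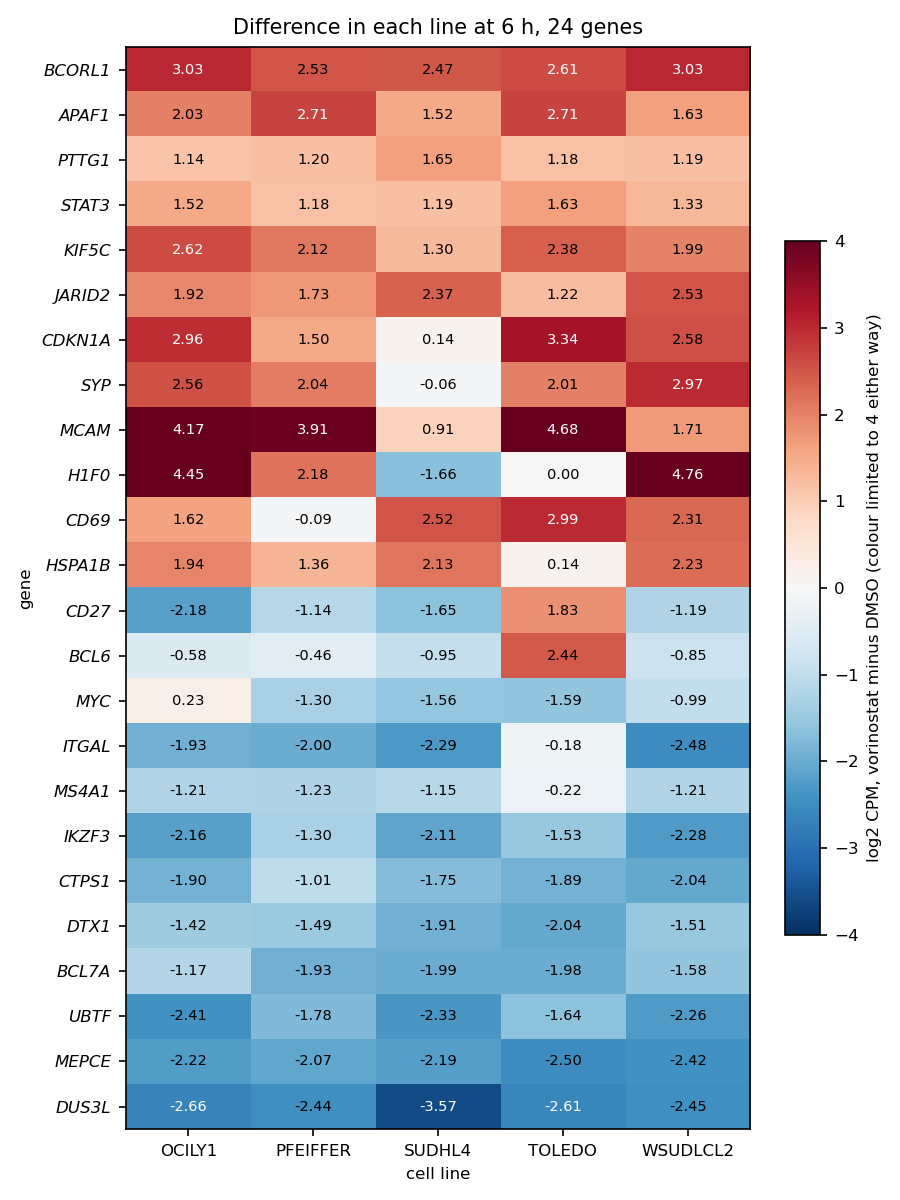
Difference in log2 CPM between vorinostat and DMSO in each of the 5 lines for 24 genes, printed in each cell and coloured from blue (lower) to red (higher). BCORL1, UBTF and MEPCE had the same sign in all 5 lines, while CD27 and BCL6 were higher in TOLEDO and lower in the other 4.

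Some B-cell genes show such a line clearly. BCL6, the master repressor of the germinal centre, had 573, 434, 495, 6.80 and 434 CPM in DMSO and 382, 315, 256, 38.3 and 241 CPM with vorinostat. It was lower in 4 lines and higher in TOLEDO, the line where it was lowest by far, and with -0.25 (SE 0.42) it was not called. Without TOLEDO the change was -0.71 (adjusted p = 0.003), and in the V columns' 3 lines it was -0.79 (adjusted p = 0.0017). CD27, a memory B-cell marker, had 59.5, 50.2, 110.2, 0.155 and 59.5 CPM in DMSO and 12.9, 22.6, 35.0, 1.34 and 25.9 CPM with vorinostat, with TOLEDO at or under 1.34 CPM in both. Its fitted fall of -1.37 (SE 0.34) was called (adjusted p = 0.0126) but lost the call without OCILY1 or SUDHL4 (adjusted p = 0.0525 and 0.0576), with DESeq2 (adjusted p = 0.187) and with limma (adjusted p = 0.468). Whether the lines differ beyond library noise was not tested, since each line has 1 library per treatment.

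Gene structure went with the direction of change. With protein-coding genes in 5 equal bins by their span from start to end, the share called higher was 18.82% in the shortest bin (0.21 to 11.3 kb), 20.54%, 22.06% and 26.11% in the next 3 and 24.89% in the longest (over 91.3 kb). The share called lower ran from 18.22% in the longest to 21.54% in the middle bin. The median log2 fold change went from -0.01 in the shortest to 0.11 in the longest bin. These bins also differed in level, with a median mean log2 CPM of 4.47 in the shortest and 5.04 in the longest. In the third of genes with the highest levels, 15.28% of the shortest bin and 20.40% of the longest were called higher. The longest bin there had 21.60% called lower and a median of 0.01. By level, the share called lower was 8.97% in the lowest of 5 bins and from 17.34% to 23.64% in the others. Protein-coding genes were called higher in 22.48% and lower in 20.07%, and long intergenic RNA genes in 12.09% and 14.65%. Of 399 protein-coding genes whose symbol begins with ZNF, for zinc finger protein, 84 fell (21.05%) and 33 rose (8.27%). Their share of falls was thus near the 20.07% of all protein-coding genes, and their share of rises was below the 22.48%.

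**Figure D4:**
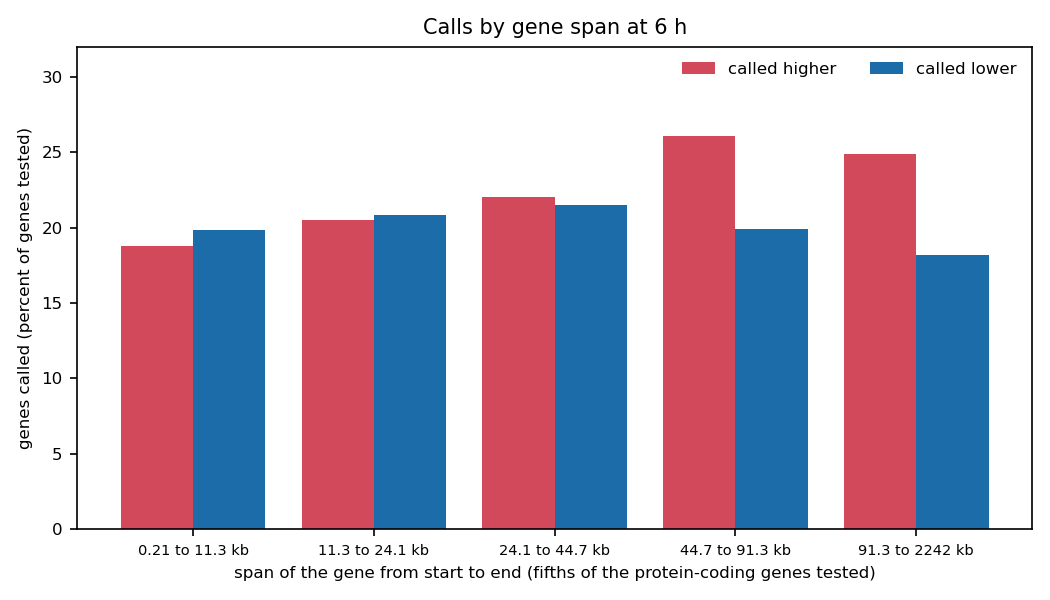
Percent of protein-coding genes tested that were called higher (red) or lower (blue) with vorinostat at 6 h, in 5 bins of genes by span from start to end in kb. The bars for genes called higher go from 18.82% in the shortest bin to 26.11% in the next to longest.

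Pracinostat, the other hydroxamic acid HDAC inhibitor of the series, was measured in the same 5 lines at the same time, with the dose not given in the sources used here. Set directly against it, with no DMSO library in the test, vorinostat differed in 0 of 12039 genes (0.0% called, 0.0% higher and 0.0% lower) by edgeR's quasi-likelihood test, while 1567 genes had an unadjusted p under 0.05. The smallest adjusted p was 0.0994. The 95% interval of a gene's log2 difference, not adjusted for the number of genes, had a median width of 0.63. Differences within that width could pass uncalled, and larger ones did, that of MXD1 below among them. Without WSUDLCL2, 85 genes were called, 65 higher and 20 lower with vorinostat. MXD1 differed by 0.80 (95% interval 0.53 to 1.07), adjusted p = 0.0994, and KEAP1 by -0.61 (95% interval -0.88 to -0.35), adjusted p = 0.155. For CDKN1A the difference was 0.10 (95% interval -0.21 to 0.42) and for UBTF -0.15 (95% interval -0.39 to 0.08). Against the same 5 DMSO libraries, which both comparisons share, the log2 fold change with pracinostat was 2.37 (SE 0.19) for BCORL1, 2.12 (SE 0.29) for CDKN1A and -1.93 (SE 0.13) for UBTF. It was -1.80 (SE 0.14) for MEPCE, -1.47 (SE 0.12) for KEAP1 and 1.25 (SE 0.21) for MXD1, beside the vorinostat values given above.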

How the data were processed

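Counts per gene were read from the authors' deposited table of whole-number counts, 18011 genes by 37 of the 38 samples, whose columns were mapped by the description labels. Alignment with STAR to hg38 and edgeR are named in the submitters' processing notes, without a stated version, role or order. Strandedness is not given in the sources used here, so overlapping antisense genes cannot be told apart. A second table of log2 normalized values deposited by the authors served as an alternative. Gene IDs were matched to GENCODE 29 (17859 matched, 152 not) for positions.

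The 10 libraries were fitted with edgeR 4.0.16 in R 4.3.3: filterByExpr, TMM factors, the cell line as block and a two-sided quasi-likelihood test with Benjamini-Hochberg adjustment over 12143 genes, called under 0.05. A test against a 2-fold change used glmTreat. Standard errors (SE) and fold changes are on the log2 scale. The procedure was tested on simulated data. The pairing comes from the cell line: deviations of a line's libraries correlated at 0.853 to 0.912, and those of different lines at 0.219 or less. Values of single lines are log2 CPM with a prior count of 2.

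The genes named in the text were taken from the 15 largest rises and 15 largest falls among called genes alike in 5 of 5 lines whose mean log2 CPM reached 2, up to 3 rises and 3 falls per list, and a short set of reference genes. Members and lists were chosen with earlier results of these data known, so their counts are descriptions. DESeq2 1.42.0, limma 3.58.1, other scalings and filters, a fit without the block, a fit of all 6 h libraries and leaving out each line were alternatives. Using only the lines whose DMSO column ends in V was added after seeing the data. The floor is 3 counts, 0.359 to 0.913 CPM by library, and covers counting error only. Promoters are RefSeq's, on GRCh38.p14.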

Additional observations from a re-analysis of the deposited data

Results flagged for a closer look

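In 10 of 126 genes checked, 1 line's log2 difference lay apart from the other 4 by Dixon's criterion, which chance alone meets in about 1 of 20 groups. TOLEDO was the line apart in 5 of them. For BCL6 its difference was 2.44, with the others between -0.95 and -0.46, and for CD27 it was 1.83, with the others between -2.18 and -1.14. For HDAC1 TOLEDO had 0.43 and the others -0.43 to -0.22. For MS4A1 it had -0.22 against -1.23 to -1.15, and for ITGAL -0.18 against -2.48 to -1.93.

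SUDHL4 stood apart in 3 genes. Its difference was 2.40 for HEY1, where the others had 3.58 to 3.80, it was -3.57 for DUS3L, where they had -2.66 to -2.44, and it was 1.65 for PTTG1, where they had 1.15 to 1.20. PFEIFFER stood apart for CTPS1, with -1.01 against -2.04 to -1.75, and for TUBA1C, with 0.19 against -0.97 to -0.77. With 1 library per line and treatment, a line and a library cannot be told apart.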

How the results depend on the processing

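Without the replicate block for the line, 566 genes were called (208 higher, 358 lower) and 7 passed the 2-fold test (4 higher, 3 lower). Genes past 2-fold numbered 296 higher with no filter, and 557 in all (351 higher) with all 6 h libraries in 1 fit. Leaving out each line in turn gave 3709 to 4677 genes called (1936 to 2321 higher, 1743 to 2356 lower), and 196 to 362 past 2-fold (112 to 201 higher, 82 to 161 lower), the fewest without OCILY1 (196) or WSUDLCL2 (198). Against pracinostat, 12 genes were called with no filter (10 higher, 2 lower), and 0 to 85 when a line was left out (0 to 65 higher, 0 to 20 lower). The difference in mitochondrial share moved between -0.416 and 0.0954 percentage points, and that of ribosomal protein genes between -0.328 and 0.318. Scaling by library totals called 2954 genes higher and 1970 lower (59.99% higher) and moved the median of all genes to 0.10. CIITA turned to -0.298 without the block and ran from -0.035 without TOLEDO to 0.397 without PFEIFFER. GAPDH ran from -0.105 without TOLEDO to 0.074 without WSUDLCL2 and turned to -0.065 in the 3 lines of the V columns. The cause of these changes was not tested. Of 256 named genes, DESeq2 gave the same call for 252 and limma on the deposited log2 values for 247. Low depth limits genes near the floor, most of all in SUDHL4 with DMSO.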
